A study of Mus musculus with 6 samples.

Results

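The 10 genes described here encode parts of the insulin-like growth factor (IGF) system: the ligand gene *Igf1*, the receptor genes *Igf1r* and *Insr*, the binding protein genes *Igfbp2*, *Igfbp3*, *Igfbp4* and *Igfbp5*, and the RNA-binding protein genes *Igf2bp1*, *Igf2bp2* and *Igf2bp3*. They were chosen by name, as members of this system, from the 35565 gene identifiers of the count table, and all 10 passed the filter on low counts. Their RNA was measured by bulk RNA sequencing of mouse gastruloids, aggregates of embryonic stem cells (ESCs) that elongate and form derivatives of the germ layers, collected on day 5 (120 h). The 3 Control (NT) libraries came from ESCs that carried a non-targeting construct, although the sample labels give their genotype as WT, and the 3 KD-1 libraries came from ESCs in which the ultra-conserved long non-coding RNA *T-UCstem1* was knocked down. Both lines derive from TBV2 129/SvP ESCs, were aggregated in N2B27 medium and received 3 µM CHIR99021, a GSK3 inhibitor that activates WNT signalling, from 48 h to 72 h. KD-1 is a single clone, so that any other difference between the lines enters the comparison. Nothing in the labels says that libraries came from separate cultures, so the p-values measure the spread between libraries, which may be technical. *T-UCstem1* RNA was not analysed here.

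IGF1 and IGF2 are secreted growth factors that act mainly through IGF1R, a receptor tyrosine kinase, and its close relative INSR, the receptor of insulin, to activate the PI3K-AKT and MAPK branches. The secreted IGF binding proteins (IGFBPs) hold the ligands at high affinity and so limit, store or deliver them. Despite their name, the IGF2 mRNA-binding proteins (IGF2BPs) do not bind the growth factors: they are cytoplasmic proteins of embryonic and tumour cells that bind IGF2 mRNA and many other transcripts and affect their stability, transport and translation. N2B27, the medium of these cultures, is supplemented with insulin.

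IGF2BP mRNAs are known targets of let-7, a microRNA family that accumulates during differentiation, and the sites are shown here because they set *Igf2bp1* apart from the other 9 genes. The RefSeq sequence of the mature microRNA is given first, with its seed (bases 2 to 8) in capitals, followed by a window of 30 bases around each match in the 3′ UTRs of the IGF2BP genes, read from GRCm39 on the minus strand with the match CTACCTC in capitals.
mmu-let-7a-5p: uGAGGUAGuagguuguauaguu
*Igf2bp1*, chr11:95852603-95852632: ggcagtgctgtgcgaagtaaaCTACCTCaa
*Igf2bp1*, chr11:95850182-95850211: gggaaccagcagtgctattaaCTACCTCag
*Igf2bp1*, chr11:95849588-95849617: ctacgagtataaatggatgaaCTACCTCag
*Igf2bp1*, chr11:95848965-95848994: tgtttcacttttggttttaatCTACCTCtt
*Igf2bp2*, chr16:21878222-21878251: agaaaaacacacaaataaaagCTACCTCag
*Igf2bp3*, chr6:49063720-49063749: taaacgtgcatttttactcaaCTACCTCag

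The 3′ UTR of the canonical *Igf2bp1* transcript, 6337 bases long, held 4 matches. Of the 675 3′ UTRs of tested genes with a similar length (a length ratio of at least 0.8), 32.4% held at least 1 match and 0.296% held at least 4. *Igf2bp2* and *Igf2bp3* held 1 match each, where 13.0% and 13.6% of 3′ UTRs of a length similar to theirs held at least 1. Among the remaining genes, *Igf1r* held 2 matches, *Igf1*, *Insr* and *Igfbp5* held 1 each, and *Igfbp2*, *Igfbp3* and *Igfbp4* held none. Over all 14066 3′ UTRs searched, 11.9% held the match. A match is a description of the letters, and microRNAs were not measured in these libraries.

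*Igfbp2* and *Igfbp5* are the pair whose levels moved furthest apart within the binding protein family, and they are neighbours on chromosome 1. On GRCm39, *Igfbp2* (ENSMUSG00000039323) spans chr1:72863606-72891634 on the plus strand and *Igfbp5* (ENSMUSG00000026185) spans chr1:72897091-72914043 on the minus strand, so that the genes point towards each other with 5456 bp between their ends. Their promoters are given from the RefSeq table, whose build is GRCm38.p6, as the 250 bases before and 50 bases after the annotated start, with matches to the GC box (GGGCGG, either strand) in capitals.
*Igfbp2*, chr1:72824230-72824529, plus strand: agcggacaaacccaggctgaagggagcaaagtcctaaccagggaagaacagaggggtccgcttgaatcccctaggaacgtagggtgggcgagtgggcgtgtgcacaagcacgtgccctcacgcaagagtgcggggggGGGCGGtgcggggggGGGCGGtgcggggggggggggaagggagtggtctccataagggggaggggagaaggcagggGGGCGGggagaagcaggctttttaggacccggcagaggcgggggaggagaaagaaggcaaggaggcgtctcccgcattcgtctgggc
*Igfbp5*, chr1:72874816-72875115, minus strand: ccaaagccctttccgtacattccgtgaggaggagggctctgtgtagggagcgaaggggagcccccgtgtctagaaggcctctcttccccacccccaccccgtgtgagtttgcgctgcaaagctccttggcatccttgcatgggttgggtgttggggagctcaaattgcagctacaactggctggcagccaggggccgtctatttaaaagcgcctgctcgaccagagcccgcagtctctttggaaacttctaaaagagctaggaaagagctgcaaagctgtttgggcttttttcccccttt

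The *Igfbp2* promoter held 3 GC boxes, at positions -113, -98 and -37 from the start, whereas that of *Igfbp5* held no GC box, TATA box (TATAAA) or CCAAT box (CCAAT) on either strand. A further *Igfbp2* start in the same table held none of the 3 motifs. Of 32851 promoters of the same length, 35.7% held a GC box, 13.6% a TATA box and 37.4% a CCAAT box. The *Igfbp2* window had a GC content of 67.0% with 18 CpG, and the *Igfbp5* window had 56.3% with 10 CpG. Of the other genes with an entry, *Igf1r* and *Igf2bp2* held 2 GC boxes each, *Igfbp4* a TATA box at position -28, *Igf1* and *Igf2bp3* a CCAAT box each, and *Igfbp3* none of the 3 motifs. *Insr* and *Igf2bp1* had no entry.

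Library totals ranged from 20982249 to 56674906 counts in Control (NT) and from 41180012 to 85561026 counts in KD-1. Since the columns of the table name only the group, libraries are called by their depth within the group (lowest, middle or highest). Levels are given as CPM (counts scaled to a common library size after TMM normalization), and log2 fold changes (KD-1 against Control) with their standard error (SE) come from edgeR's quasi-likelihood test over 15110 genes. Genes that passed a Benjamini-Hochberg adjusted p of 0.05 and differed by more than 1.5-fold in either direction were called. The middle Control library stood apart from its group, with root-mean-square log2 differences over genes of 0.432 and 0.369 from the other Control libraries, against 0.264 between those 2 and at most 0.205 between KD-1 libraries. Libraries of different groups differed by at least 0.848.

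Of the 10 genes, 4 were called: *Igf1* and *Igfbp2* rose, and *Igfbp4* and *Igfbp5* fell in KD-1. Of all genes tested, 37.7% were called, 19.7% higher and 18.1% lower, so that the share among the 10 was near the background. An adjusted p under 0.05 without regard to the fold was reached by 8 of the 10 genes, 4 higher and 4 lower, against 63.5% of all genes. The median log2 fold change was -0.07 over the 10 genes and -0.01 over all genes tested, and the median absolute log2 fold change was 0.46 and 0.49, respectively. The groups did not overlap in 8 of the 10 genes, as in 70.6% of all genes tested.

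**Figure D1:**
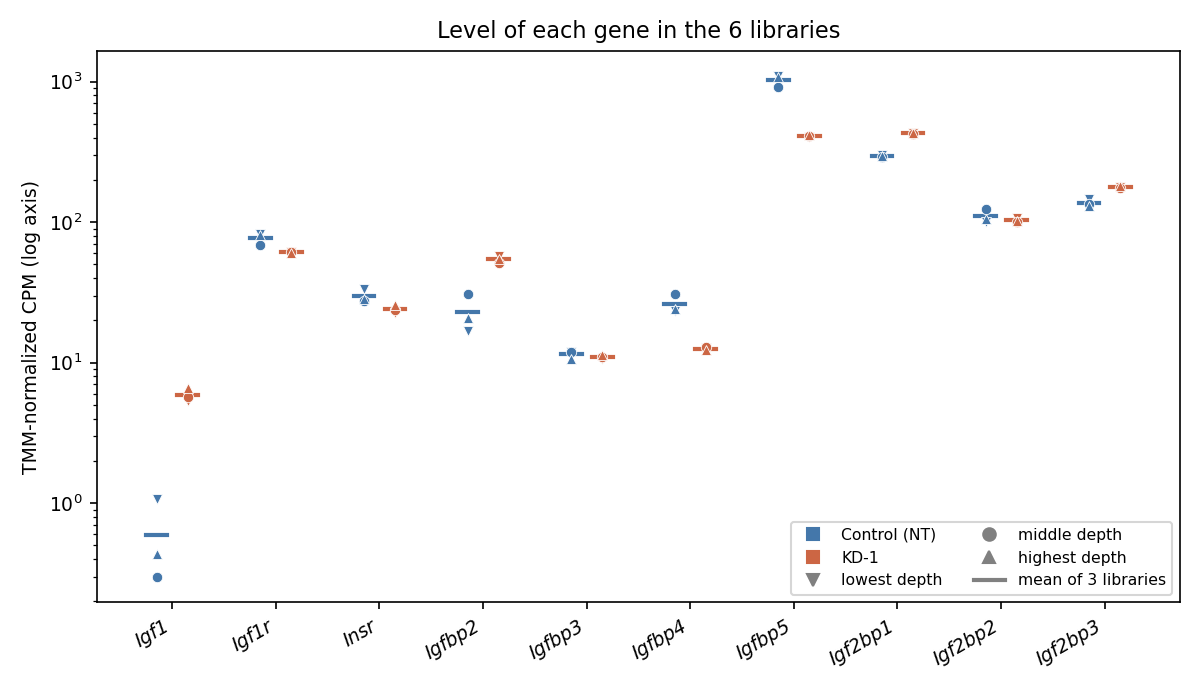
Level of each of the 10 genes in the 6 libraries, in TMM-normalized CPM on a log axis; points are libraries, marked by depth within their group, and bars are means of 3. The groups overlap for *Igfbp3* and *Igf2bp2* and lie apart for the other genes, with the widest gap for *Igf1*.

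*Igf1* (ENSMUSG00000020053, chr10:87693642-87772904, plus strand, GRCm39) was the gene of the set with the largest change and also the lowest level. The lowest, middle and highest Control libraries held 22, 10 and 24 *Igf1* counts, or 1.06, 0.296 and 0.433 CPM. The KD-1 libraries, in the same order of depth, held 222, 246 and 577 counts, or 5.30, 5.65 and 6.64 CPM. Every KD-1 library lay above every Control library. The rise was 11.0-fold, a log2 fold change of 3.46 (SE 0.34, 95% interval 2.67 to 4.24, adjusted p = 4.03e-05 by edgeR's quasi-likelihood test). As a share of the library total, the highest Control value was 1.05 CPM (exact Poisson 95% interval 0.657 to 1.59) and the lowest KD-1 value was 5.39 (4.71 to 6.15), intervals that cover counting error only. The 10 to 24 counts behind the Control libraries left the size of the rise imprecise: it was 15.5-fold without the lowest Control library and 9.36-fold without the middle one. In bulk RNA, more cells that express a gene and more of its RNA per cell cannot be told apart.

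The other IGF ligand gene, *Igf2*, took the opposite direction. It had 1219 ± 67.0 CPM (SD, n = 3) in Control and 63.5 ± 3.73 (SD, n = 3) in KD-1, giving a log2 fold change of -4.26 (SE 0.08, adjusted p = 4.79e-09 by edgeR's quasi-likelihood test). Per kilobase of exon, *Igf2* stood at 198 ± 10.9 CPM against 0.0583 ± 0.0399 for *Igf1* in Control, and at 10.3 ± 0.605 against 0.573 ± 0.0682 in KD-1. *Igf1* therefore remained the minor ligand transcript in both groups. Of the insulin genes, *Ins1* was listed at 0 counts in every library, and *Ins2* had 1, 7 and 3 counts in Control and none in KD-1, so that neither was tested.

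Both receptor genes were lower in KD-1 by less than the called fold. *Igf1r* (ENSMUSG00000005533, chr7:67601518-67883416, plus strand, GRCm39), the main IGF receptor, had 82.6, 69.2 and 81.1 CPM in the lowest, middle and highest Control libraries and 61.1, 61.4 and 60.5 CPM in KD-1. The KD-1 values were tightly grouped, and the middle Control library, which lay nearest to them, was still higher. The log2 fold change was -0.35 (SE 0.07, 95% interval -0.52 to -0.18, adjusted p = 0.00329 by edgeR's quasi-likelihood test), and it was -0.43 without the middle Control library. *Insr* (ENSMUSG00000005534, chr8:3172061-3329647, minus strand, GRCm39) had 33.5, 27.4 and 28.6 CPM in Control and 22.5, 23.7 and 25.8 in KD-1. Its groups did not overlap, but the gap between the nearest libraries was smaller than the range within either group. The log2 fold change was -0.31 (SE 0.09, 95% interval -0.52 to -0.09, adjusted p = 0.0194 by edgeR's quasi-likelihood test). The adjusted p was 0.101 without the lowest KD-1 library (log2 fold change -0.25) and 0.0854 without the middle one (-0.28), so that the *Insr* difference was no longer detected with either left out.

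The balance between the receptor genes differed by less than the spread between libraries. *Igf1r* made up 64.5 ± 1.70% of their summed level per kilobase in Control and 63.9 ± 1.74% in KD-1 (SD, n = 3). Within each library the log2 ratio of *Igf1r* to *Insr* counts was 1.300, 1.339 and 1.502 in Control and 1.437, 1.374 and 1.226 in KD-1, and the groups overlapped. The mean ratio differed by -0.03 (SE 0.09, exact permutation p = 0.8, two-sided). An annotated gene on the opposite strand, *Pgpep1l*, shares 1247 bp of exon with *Igf1r*; it had at most 41 counts in any library, against at least 1712 for *Igf1r*.

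The remaining receptor genes of the family were both called lower. *Igf2r*, whose product takes IGF2 up for degradation, went from 172 ± 33.7 CPM to 97.6 ± 3.83 (SD, n = 3), a log2 fold change of -0.82 (SE 0.13, adjusted p = 0.000585 by edgeR's quasi-likelihood test). *Insrr*, which encodes the insulin receptor-related receptor, had 139, 320 and 378 counts in the Control libraries and 1, 5 and 2 in KD-1. These correspond to 7.67 ± 1.57 CPM in Control and 0.0539 ± 0.0528 in KD-1 (SD, n = 3), and the difference was called (adjusted p = 1.13e-06 by edgeR's quasi-likelihood test).

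**Figure D2:**
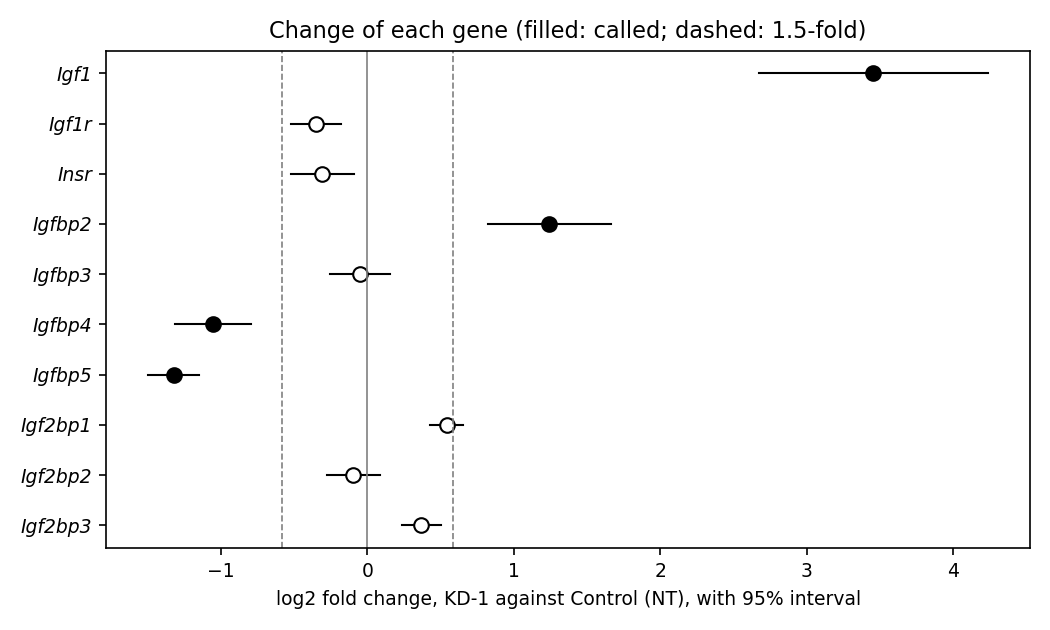
Log2 fold change of each of the 10 genes (KD-1 against Control, points) with its 95% interval (lines); filled points were called, and dashed lines mark a 1.5-fold change. The interval crosses 0 for *Igfbp3* and *Igf2bp2*, and that of *Igf2bp1* crosses the 1.5-fold line.

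The binding protein genes split: 1 rose, 2 fell and 1 did not pass the test. *Igfbp5*, whose secreted product also binds extracellular matrix, was the most abundant of the 10 genes. It had 1100 CPM in the lowest, 918 in the middle and 1078 in the highest Control library, and 406, 413 and 420 CPM in the KD-1 libraries. Every Control library held more than 2-fold the level of any KD-1 library. The fall was 2.50-fold, a log2 fold change of -1.32 (SE 0.08, 95% interval -1.49 to -1.15, adjusted p = 1.70e-06 by edgeR's quasi-likelihood test). Without the middle Control library the log2 fold change was -1.40.

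*Igfbp4* (ENSMUSG00000017493, chr11:98932064-98945218, plus strand, GRCm39), a binding protein that is inactivated when the protease PAPPA cleaves it, fell to a similar degree. It had 23.3, 30.8 and 24.0 CPM in Control and 12.6, 12.8 and 12.3 in KD-1. The groups lay well apart, and the middle Control library held the highest value. The fall was 2.07-fold, a log2 fold change of -1.05 (SE 0.11, 95% interval -1.31 to -0.79, adjusted p = 6.39e-05 by edgeR's quasi-likelihood test), and the log2 fold change was -0.92 without that library. *Pappa* itself also fell, from 1.87 to 0.275 CPM (log2 fold change -2.73, adjusted p = 0.000222 by edgeR's quasi-likelihood test).

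*Igfbp2*, a binding protein with an RGD motif that interacts with integrins, rose. It had 16.9, 30.9 and 20.8 CPM in the lowest, middle and highest Control libraries and 57.8, 50.9 and 54.5 in KD-1. The Control libraries spread over nearly a 2-fold range, all below the KD-1 libraries. The rise was 2.37-fold, a log2 fold change of 1.24 (SE 0.18, 95% interval 0.82 to 1.66, adjusted p = 0.000419 by edgeR's quasi-likelihood test). It was 1.4995 without the middle Control library and 1.08 without the lowest, and the gene was called in both cases.

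*Igfbp2* and *Igfbp5* lie on a chromosome whose genes as a whole were higher in KD-1. The median log2 fold change of the 871 tested genes on chromosome 1 was 0.49, against -0.04 for the tested genes elsewhere. Relative to the median of their chromosome, the log2 fold change was 0.75 for *Igfbp2* and -1.81 for *Igfbp5*. Within 500 kb, *Xrcc5* was called higher (log2 fold change 0.94), *Smarcal1* and *Rpl37a* were not called (0.21 and -0.40), and *Marchf4*, *Ankar* and *Tnp1* had at most 3 counts in any library. The part of the chromosome-wide difference in the rise of *Igfbp2* was not tested.

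*Igfbp3* (ENSMUSG00000020427, chr11:7156086-7164179, minus strand, GRCm39), the main IGF carrier of adult serum, had 11.9, 11.8 and 10.6 CPM in Control and 10.7, 11.0 and 11.4 in KD-1. No gap separated the groups. The log2 fold change was -0.05 (SE 0.09, 95% interval -0.26 to 0.16, adjusted p = 0.654 by edgeR's quasi-likelihood test). Its sign turned to 0.0082 when libraries were scaled by their size alone, also without a detected difference.

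**Figure D3:**
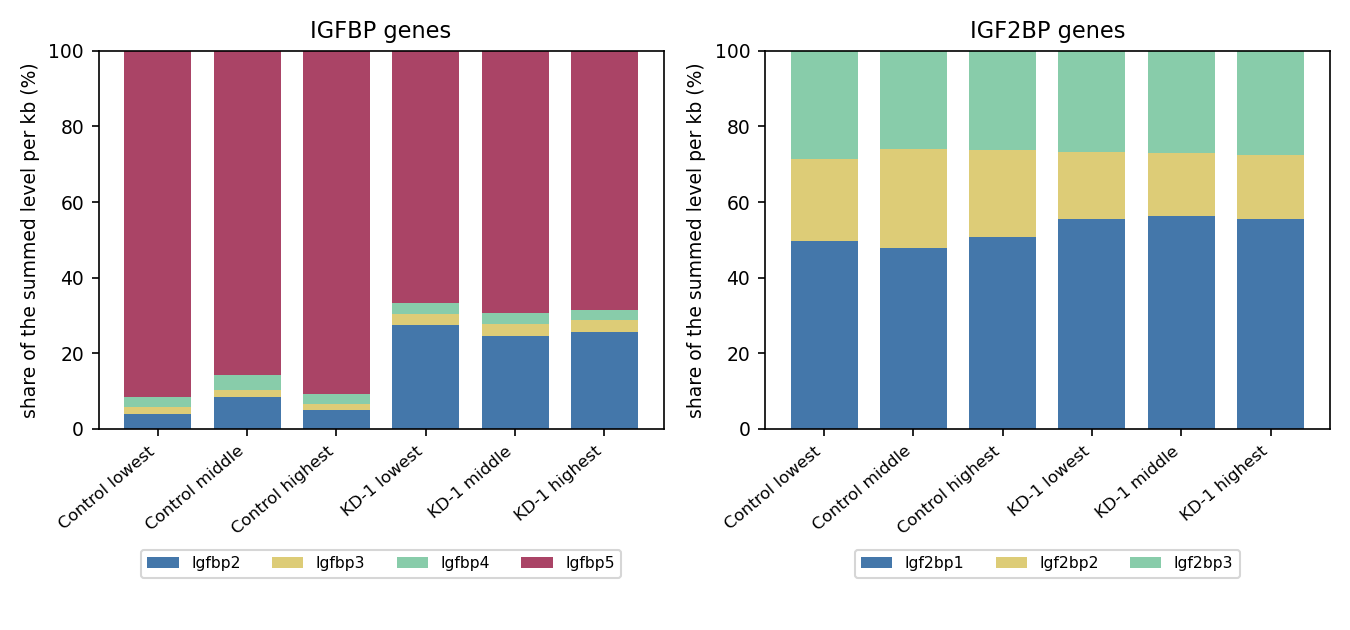
Share of each gene in the summed level per kilobase of exon of the 4 IGFBP genes (left) and the 3 IGF2BP genes (right), in percent, for each library. *Igfbp2* takes a larger and *Igfbp5* a smaller share in each KD-1 library than in any Control library, whereas the order of the IGF2BP genes is the same in 5 libraries and all but level for *Igf2bp2* and *Igf2bp3* in the middle Control library.

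As a result, the summed level of the 4 binding protein genes was lower and its makeup differed. Per kilobase of exon, the sum was 192 ± 12.1 CPM in Control and 101 ± 1.49 in KD-1 (SD, n = 3). *Igfbp5* made up 91.6%, 85.9% and 90.7% of it in the Control libraries and 66.8%, 69.3% and 68.5% in KD-1. *Igfbp2* made up 4.07%, 8.34% and 5.06% in Control and 27.5%, 24.7% and 25.6% in KD-1. *Igfbp5* thus stayed the leading binding protein transcript in all 6 libraries. *Igfbp3* and *Igfbp4* made up 1.68 ± 0.184% and 3.10 ± 0.712% in Control, and 3.06 ± 0.0905% and 2.82 ± 0.103% in KD-1.

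Ratios taken within a library, which do not depend on its scaling, set the binding protein genes against one another. The log2 ratio of *Igfbp2* to *Igfbp5* counts was -6.02, -4.89 and -5.69 in Control and -2.81, -3.02 and -2.95 in KD-1, a difference of 2.61 (SE 0.34). *Igfbp2* was higher against *Igfbp4* by 2.33 and against *Igfbp3* by 1.35 on the same scale, while *Igfbp3* was higher against *Igfbp5* by 1.26 and against *Igfbp4* by 0.98. In each of these 5 pairs the groups did not overlap, and the exact permutation p was 0.1 (two-sided), the smallest that 3 against 3 libraries allow (0.125 adjusted over the 10 pairs compared). The ratio of *Igfbp4* to *Igfbp5* differed by 0.28 (SE 0.21) with overlapping groups (exact permutation p = 0.4, adjusted 0.444), so that their falls were not distinguished.

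The listed binding proteins outside the set were mostly near or at 0. *Igfbp7* was listed at 0 counts in every library, *Igfbp1* had at most 2 counts and *Igfbp6* at most 6, and none of these was tested. *Igfals*, the acid-labile subunit of the serum complex, had 0.388 CPM in Control and 0.316 in KD-1 and was not called (adjusted p = 0.656 by edgeR's quasi-likelihood test). *Igfbpl1*, an IGFBP-like gene, rose from 7.26 ± 2.21 to 17.0 ± 0.613 CPM (SD, n = 3; log2 fold change 1.22, adjusted p = 0.000373 by edgeR's quasi-likelihood test).

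None of the 3 IGF2BP genes was called, but *Igf2bp1* lay at the edge. *Igf2bp1* (ENSMUSG00000013415, chr11:95847989-95896911, minus strand, GRCm39), which binds the coding region of *Myc* mRNA among others, had 298, 289 and 297 CPM in the Control libraries and 431, 427 and 428 in KD-1. Both groups were tight and lay far apart. The log2 fold change was 0.54 (SE 0.05, 95% interval 0.43 to 0.66, adjusted p = 2.55e-05 by edgeR's quasi-likelihood test), a 1.46-fold difference just under the 1.5-fold threshold. It passed that threshold with scaling by library size alone (0.60) and when genes needed at least 10 counts in every library (0.59).

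*Igf2bp3* (ENSMUSG00000029814, chr6:49062144-49192447, minus strand, GRCm39), an oncofetal gene silent in most adult tissues, had 146, 134 and 131 CPM in Control and 177, 174 and 180 in KD-1. The groups did not overlap. The log2 fold change was 0.37 (SE 0.06, 95% interval 0.24 to 0.50, adjusted p = 0.000616 by edgeR's quasi-likelihood test), a 1.29-fold difference. *Malsu1*, on the opposite strand, shares 1685 bp of exon with *Igf2bp3*, and whether counting used strand is not stated; it had 11.6 CPM in Control and 12.0 in KD-1.

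*Igf2bp2* (ENSMUSG00000033581, chr16:21877759-21982499, minus strand, GRCm39), the family member that persists in adult tissues, had 101, 123 and 105 CPM in Control and 107, 99.7 and 102 in KD-1. The groups overlapped, and the middle Control library was the highest. The log2 fold change was -0.09 (SE 0.08, 95% interval -0.28 to 0.09, adjusted p = 0.327 by edgeR's quasi-likelihood test).

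The 3 IGF2BP genes kept their order in the group means, and their sum was higher in KD-1. Per kilobase of exon, the sum was 58.0 ± 0.862 CPM in Control and 74.8 ± 0.835 in KD-1 (SD, n = 3). *Igf2bp1* made up 49.4 ± 1.44% of it in Control and 55.8 ± 0.378% in KD-1, *Igf2bp2* 23.5 ± 2.32% and 17.1 ± 0.455%, and *Igf2bp3* 27.1 ± 1.44% and 27.1 ± 0.351%. Within a library, the log2 ratio of *Igf2bp1* to *Igf2bp2* counts was higher in KD-1 by 0.63 (SE 0.10), that of *Igf2bp1* to *Igf2bp3* by 0.17 (SE 0.05), and that of *Igf2bp2* to *Igf2bp3* differed by -0.46 (SE 0.12). The groups did not overlap in these 3 ratios (exact permutation p = 0.1, the smallest possible).

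Levels per kilobase of exon put the 10 genes in one order. In Control, *Igfbp5* led at 172 ± 16.5 CPM per kilobase, followed by *Igf2bp1* (28.7 ± 0.505), *Igf2bp3* (15.7 ± 0.911), *Igf2bp2* (13.7 ± 1.46), *Igfbp2* (11.0 ± 3.46), *Igfbp4* (5.88 ± 0.942), *Igf1r* (3.93 ± 0.369), *Igfbp3* (3.21 ± 0.207), *Insr* (2.16 ± 0.237) and *Igf1* (0.0583 ± 0.0399). The libraries of *Igf2bp3* and *Igf2bp2* overlapped, as did those of *Igf2bp2* and *Igfbp2*. In KD-1, *Igfbp5* still led at 68.8 ± 1.20, ahead of *Igf2bp1* at 41.7 ± 0.228, and *Igfbp2*, at 26.2 ± 1.67, lay above *Igf2bp3* (20.3 ± 0.320) and *Igf2bp2* (12.8 ± 0.473). With the length of the longest transcript in place of all exons, *Igfbp2* (36.3) and *Igf2bp3* (36.5) were level in KD-1. Again over all exons, *Igf1r* and *Igfbp3*, both at 3.08 in KD-1, were not distinguished, and *Igfbp4* (2.84 ± 0.0631), *Insr* (1.74 ± 0.122) and *Igf1* (0.573 ± 0.0682) followed. The longest transcript gave *Igf1r* 4.86 in KD-1, above *Igfbp4* (3.28) and *Igfbp3* (3.10), so that the order of these 3 genes depends on the length used. In Control, it made *Insr* (3.18) and *Igfbp3* (3.22) level, and the libraries of *Igf1r* (6.18) and *Igfbp4* (6.78) came to overlap.

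Of the 65 other genes listed for IGF and insulin signalling, 58 passed the filter on low counts; 23 of these were called (39.7%), with 9 higher and 14 lower in KD-1, against the background of 37.7%. Their median log2 fold change was -0.09. The list was described by role, and no role moved in one direction throughout where more than 2 of its genes were called. The counts by role are small and are to be read beside the same background of 37.7%.

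Outside the cell, 2 of the 5 genes for binding protein proteases and their inhibitors were called (40%, near the 37.7% of all genes tested). Both were lower: *Pappa*, and *Stc1*, which encodes a secreted inhibitor of PAPPA (from 1.92 to 0.738 CPM, log2 fold change -1.37, adjusted p = 0.000938 by edgeR's quasi-likelihood test). *Pappa2*, *Stc2* and *Htra1* were not called. Among 8 adaptor genes, the insulin receptor substrate genes *Irs4* (0.940 to 2.82 CPM, log2 fold change 1.63) and *Irs1* (9.25 to 23.9 CPM, 1.37) rose and *Shc1* (82.7 to 54.8 CPM, -0.59) fell, with adjusted p = 0.00628, 1.06e-05 and 4.56e-05 by edgeR's quasi-likelihood test. Of 6 inhibitor genes acting near the receptor, *Socs2*, a feedback inhibitor of growth hormone signalling, rose from 25.8 to 76.3 CPM (log2 fold change 1.57, adjusted p = 5.39e-06) and *Socs3* fell from 3.76 to 2.15 CPM (-0.81, adjusted p = 0.00456 by edgeR's quasi-likelihood test).

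In the PI3K and AKT branch, the catalytic subunit gene *Pik3cb* (log2 fold change 1.34) rose, whereas the kinase gene *Akt1* (-0.99) and the regulatory subunit genes *Pik3r2* (-0.98) and *Pik3r1* (-0.91) fell. *Akt1* went from 71.2 to 35.9 CPM (adjusted p = 2.33e-05 by edgeR's quasi-likelihood test). The adaptor gene *Irs1* lies on chromosome 1. Among genes that restrain this branch or mTOR, *Inppl1* (-1.06) and *Sesn1* (-0.60) fell. *Shc1* and *Sesn1*, whose folds lie next to the threshold, lost their calls with DESeq2, with RLE normalization and with scaling by library size alone. They also lost them with a minimum of 10 counts per library, and without the middle Control or the highest KD-1 library. *Shc1* was further lost without a filter on low counts, and *Sesn1* without the lowest KD-1 library. In a test against a 1.5-fold change, both were lost together with *Igf2r*, *Rps6* and *Socs3*. Further downstream, 1 of 7 mTOR genes was called, the ribosomal protein gene *Rps6* (lower, -0.65), and 1 of 5 tested FOXO and GSK3 genes, the transcription factor gene *Foxo1* (higher, 0.72).

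**Figure D4:**
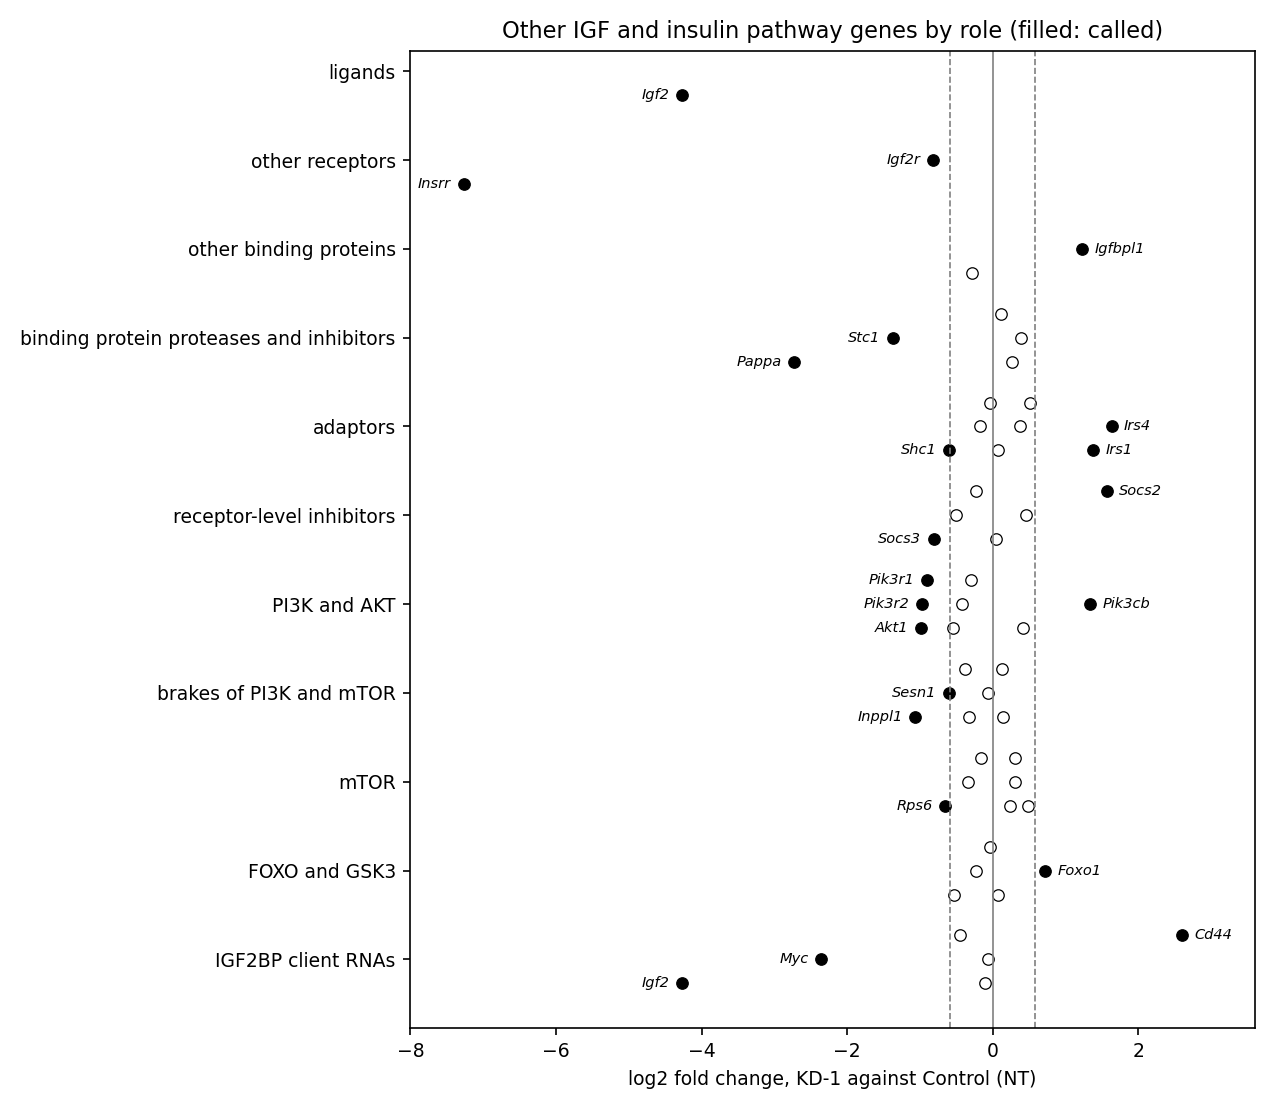
Log2 fold change (KD-1 against Control) of 56 tested genes of the listed IGF and insulin pathway, 1 point per gene and role; *Igf2* stands under 2 roles. Filled points were called and named, and dashed lines mark a 1.5-fold change. Called genes lie on both sides of 0, and *Insrr* and *Igf2* lie farthest to the left.

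Of 7 transcripts known to be bound by IGF2BPs, 6 were tested and 3 were called, in both directions, against 37.7% of all genes tested. *Igf2* fell as given above. *Myc* fell from 32.4 to 6.37 CPM (log2 fold change -2.35, adjusted p = 5.88e-06 by edgeR's quasi-likelihood test). *Cd44* rose from 8, 8 and 12 counts in Control to 82, 73 and 106 in KD-1 (0.280 to 1.62 CPM, log2 fold change 2.60, adjusted p = 0.000258 by edgeR's quasi-likelihood test). *Hmga2* had a log2 fold change of -0.44 (adjusted p = 0.000165), below the called fold, and *Actb* (-0.07) and *Lin28b* (-0.10) did not pass the test. *H19* was not analysed here.

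Marker genes of the cell types that gastruloids can hold moved along with these differences. The summed level of 8 naive pluripotency markers, 6 of which were called higher, was 424 to 475 CPM in Control and 1384 to 1421 in KD-1. The summed level of 10 paraxial mesoderm and somite markers was 529 to 609 CPM in Control and 45.5 to 46.0 in KD-1, with all 9 tested genes called lower and *Msgn1* at no more than 3 counts in every library. Of 5 neural markers, *Tubb3*, *Sox1* and *Pax6* were called higher, *Nes* had a log2 fold change of -0.44 (adjusted p = 0.000279 by edgeR's quasi-likelihood test) below the called fold, and *Neurog2* did not pass the test. The sum of the 5 was 148 to 153 CPM in Control and 213 to 221 in KD-1. The part of these cell type differences in the levels of the 10 genes was not tested.

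Markers of other cell types that can contribute IGF and IGFBP transcripts had lower sums than the lists above, and these sums also differed between the groups. Of the 7 fibroblast markers 4 were tested and 3 were called lower, with a sum of 8.34 to 9.15 CPM in Control and 0.817 to 1.00 in KD-1, while *Thy1* had a log2 fold change of 1.59 (adjusted p = 0.083 by edgeR's quasi-likelihood test). Of the 5 macrophage markers, *Ptprc*, *Adgre1*, *Csf1r* and *Tyrobp* had at most 3 counts in every library, and the sum was 3.28 to 3.84 CPM in Control and 1.98 to 2.07 in KD-1, almost all from *Cd68*, which was called lower. The part of these cell types in the *Igf1* difference was not tested. The 4 endothelium markers summed to 16.2 to 17.4 CPM in Control and 29.8 to 31.8 in KD-1, with *Pecam1* called higher and *Kdr* lower. Most of the sum came from *Pecam1*, at 14.4 to 14.7 CPM in Control and 28.7 to 30.7 in KD-1. *Cdh5* and *Tie1* did not pass the filter on low counts. *Cdh5* had 0.237 to 0.379 CPM in Control and 0.0230 to 0.0239 in KD-1, and *Tie1* at most 0.193 CPM in any library. Of the 4 definitive endoderm markers *Sox17*, *Foxa2* and *Gsc* did not pass the filter on low counts, and *Cer1* was called lower. The sum was 14.2 to 15.5 CPM in Control, almost all from *Cer1*, and 0.167 to 0.322 in KD-1. It therefore describes *Cer1* and not the list. The 3 genes that did not pass the filter lay near 0 and took no common direction. *Sox17* was lower in KD-1, at 0 to 0.0115 CPM against 0.162 to 0.266 in Control. *Foxa2* was slightly higher, at 0.104 to 0.143 CPM against 0.0180 to 0.0965, and the groups overlapped for *Gsc*. In its single-cell data, the paper reported the anterior primitive streak and definitive endoderm population as more represented in KD-1.

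For each of the 10 genes, the gene with the most similar pattern was sought over the 6 libraries, as the smallest root-mean-square difference of log2 CPM, each gene centred on its own mean, among 12854 genes with a mean count of at least 50. For *Igfbp4* it was *Lefty1* (0.0273), which encodes an inhibitor of Nodal, and for *Igfbp5* it was *Pxdn* (0.0387), a peroxidase of the extracellular matrix. For *Igfbp2* it was *Ptpn18* (0.0681), a phosphatase gene. Both *Ptpn18* and *Lefty1* lie on chromosome 1, as *Igfbp2* does, whereas *Igfbp4* lies on chromosome 11. The IGF2BP genes were closest to *Hat1* (*Igf2bp1*, 0.0129), a histone acetyltransferase gene, *Eefsec* (*Igf2bp2*, 0.0162), which encodes the selenocysteine elongation factor, and *Slx4ip* (*Igf2bp3*, 0.0200). *Igf1r* was closest to *Golga1* (0.0179), *Insr* to *Sclt1* (0.0217) and *Igfbp3* to *Spcs3* (0.0228). *Igf1* had the most distant neighbour, the processed pseudogene *Gm7896* (0.0989), whose reads may be shared with its parent gene. These distances describe 6 libraries of 2 groups and carry no test.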

How the data were processed

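Total RNA of day 5 gastruloids was prepared with the TruSeq kit and sequenced as paired ends on a NextSeq 500. The authors quantified the reads with Salmon (version 1.1) on a Gencode gene model whose species and build are not given in the sources used here, and deposited estimated counts (expected counts) per Ensembl gene as unnormalized whole numbers. The way transcripts were summed to genes is not stated. Salmon divides reads between similar or overlapping sequences, so that counts of such genes are uncertain. The table's 6 sample columns name the group and not the replicate number of the labels.

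Counts were tested with edgeR (version 4.0.16, R 4.3.3) over the whole table: filterByExpr with its defaults, TMM normalization and a robust quasi-likelihood fit with the condition as the only term. The biological coefficient of variation was 10.6%. Benjamini-Hochberg adjustment covered all 15110 genes tested. Every pair of libraries of a group differed by more than sampling noise (the lowest chi-square per degree of freedom was 4.85). The test was checked on simulated counts with known changes in a small share of genes, balanced in direction and with the same variability for every gene. That check does not cover a difference as broad as the one between these groups. Gene positions, exon lengths and 3′ UTRs came from GENCODE vM39 (GRCm39), which held 35222 of the 35565 identifiers. Ratios of paired genes used log2 counts with a prior count of 2, and nearest genes log2 CPM with a pseudocount of 0.5.

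The 10 genes were chosen by name and not by a threshold on their values, but they, the pathway list, the marker lists and the tests were chosen with earlier results of these data known. All 10 genes are named. Of the pathway list, the called gene with the largest rise and the largest fall of each role are named, with all ligands, receptors, binding proteins and client RNAs and any gene that a count of 5 or fewer refers to, except that 2 genes of the list are counted but not reported here. Alternatives were DESeq2 (version 1.42.0), limma-voom (limma version 3.58.1), other scalings, other filters on low counts, no robust estimation, other fold thresholds, transcript lengths and each library left out in turn.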

Additional observations from a re-analysis of the deposited data

How the results depend on the processing

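Over 15 settings of the fit and the 10 genes, 147 of 150 log2 fold changes kept their direction and their side of the threshold. The exceptions were *Igfbp3*, at 0.0082 with scaling by library size alone, where it was not detected either, and *Igf2bp1*, called at 0.5991 with scaling by library size alone and at 0.5858 with at least 10 counts in every library. Without a fold threshold, 8 of the 10 genes (4 higher, 4 lower), 40 pathway genes (16 higher, 24 lower) and 9597 genes of all were called. At an absolute log2 fold change over 1 the pathway count was 13 (7 higher, 6 lower) and that of all genes 3274, and a test against a 1.5-fold change (glmTreat) called 3763 genes. With any single library left out, 4 of the 10 genes were called in each case, and between 21 and 26 pathway genes. The scalings moved the median log2 fold change of all genes to between -0.03 and 0.04.

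With the length of the longest transcript in place of all exons, CPM per kilobase in Control and KD-1 became 6.181 and 4.856 (*Igf1r*), 3.178 and 2.558 (*Insr*), 15.27 and 36.3 (*Igfbp2*), 34.56 and 50.31 (*Igf2bp1*), 22.18 and 20.8 (*Igf2bp2*), and 28.27 and 36.52 (*Igf2bp3*), and in KD-1 0.7727 (*Igf1*) and 3.277 (*Igfbp4*). Shares of the IGFBP sum in KD-1 became 32.55% (*Igfbp2*), 2.778% (*Igfbp3*), 2.94% (*Igfbp4*) and 61.73% (*Igfbp5*). Shares of the IGF2BP sum in Control and KD-1 became 40.67% and 46.75% (*Igf2bp1*), 26.08% and 19.32% (*Igf2bp2*), and 33.25% and 33.93% (*Igf2bp3*). These follow from the lengths alone.

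No paired analysis was possible because the columns of the count table carry no replicate numbers that match the labels. With 3 libraries a group, the exact permutation test on ratios of paired genes could not reach a p under 0.1. KD-1 is a single clone. The 10 to 24 *Igf1* counts of the Control libraries limit the precision of its fold change.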
